A study of Mus musculus with 20 samples.

Results

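The genes described here are 10 genes of the fibrous extracellular matrix and of the cells that make it. They include the fibrillar collagen genes Col1a1, Col1a2, Col5a1 and Col5a2, the collagen cross-linking enzyme genes Lox and Loxl1, and the microfibril gene Fbn1. The others are the contractile genes Acta2 and Tagln and the growth factor receptor gene Pdgfrb. Peaks of N6-methyladenosine (m6A) on all 10 genes were followed in chromatin-associated RNA of mouse embryonic stem cells. A peak belonged to a gene when its summit lay within the gene body on the same strand (GENCODE M21 annotation, mm10 genome build). By this rule 75 of 437949 peaks belonged to the 10 genes, of 14601 genes with a peak. Peaks of all 10 libraries that overlapped on the same strand formed 19 regions in the 10 genes, of 87498 regions in all.

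All libraries came from C57BL/6 embryonic stem cells grown in serum with LIF and the inhibitors CHIR99021 and PD0325901. The groups were Mettl3 KO1 and Mettl3 KO2, knockouts of the catalytic subunit of the m6A methyltransferase, with their Mettl3 control, and Ythdc1 cKO, a conditional knockout of a nuclear reader protein of m6A, with its Ythdc1 control. The labels name no allele, Cre driver or induction, and they do not say whether KO1 and KO2 are single clones. Each group had 2 m6A immunoprecipitations, and the 10 inputs of the series are not analysed here. The labels are silent on whether duplicate libraries stem from independent cultures, so a p-value here measures library-to-library spread that could be wholly technical.

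Fibrillar collagens are made as chains that fold into triple helices, are secreted, and assemble into fibrils, which lysyl oxidases then cross-link. Fibroblasts and smooth muscle cells are the classical sources of this matrix, and their contractile state is marked by smooth muscle actin and transgelin. m6A is laid down on nascent transcripts by the METTL3 complex, mostly at DRACH sequences (D is any base but C, R a purine, H any base but G), and is often dense near the stop codon and in long exons.

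The members were chosen from earlier results on these peak lists. Col1a1, Col1a2, Col5a2 and Lox were selected on their loss of every control region in the Mettl3 knockouts, and the others were picked as related genes with their peaks known. The Mettl3 comparison is therefore a description with no test, and the difference between the Mettl3 and the Ythdc1 controls, which was also known, is given as values. A listed peak does not measure how much m6A or how much RNA there was, and a missing peak means that none was called at that library's depth.

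The lists held 40959 to 46735 usable peaks per library, with a median fold enrichment of 4.39 to 4.77 over all peaks. Fold enrichment is the authors' ratio of the pile-up at a summit to its local background. It has no common scale between libraries, so folds of different libraries are set side by side without a test. The most common local background, a relative sign of depth, was 14.1 to 20.03 reads, and it was highest in the 2 cKO libraries. Embryonic stem cell marker genes had peaks in every library, 8 to 10 of 10 genes. The Mettl3 gene had 0 peaks in both KO1 libraries, 1 in each KO2 library and 1 in each Mettl3 control library, while Ythdc1 had 7 and 6 in the cKO libraries and 7 in each of the Ythdc1 controls. Peaks on a targeted transcript do not check a knockout.

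The Mettl3 controls carried more peaks on these genes than any other group. KO1 had 5 and 6 member peaks and KO2 had 6 in each library, against 12 and 14 in the Mettl3 control libraries. The cKO libraries had 9 and 8 member peaks, against 4 and 5 in the Ythdc1 control libraries. As means this was 5.5 ± 0.707 in KO1, 6 ± 0 in KO2 and 13 ± 1.41 in the Mettl3 controls, and 8.5 ± 0.707 in cKO against 4.5 ± 0.707 in the Ythdc1 controls (SD, n = 2 libraries each). Neither knockout overlapped its control, and the comparisons ran in opposite directions. The whole lists ran the same way. They held 40959 to 44496 usable peaks in the KO1 and KO2 libraries, against 45292 and 46735 in the Mettl3 controls. The cKO lists held 45468 and 45599, against 43651 and 41941 in the Ythdc1 controls. Col1a1, Col1a2, Col5a2 and Lox were selected on their loss in KO1 and KO2, so that part of the Mettl3 gap was fixed in advance. The most common background, the relative sign of depth, did not follow the member peak counts across all groups, since it was highest in cKO. Within the comparisons, it was higher in both cKO libraries than in both Ythdc1 controls. It was lower in KO2 than in both Mettl3 controls, while KO1 overlapped them. On the plus strand it was 16.28 and 16.49 reads in KO1 and 16.12 and 14.92 in KO2, against 16.38 and 18.15 in the Mettl3 controls. It was 20.03 and 19.27 in cKO, against 17.77 and 15.69 in the Ythdc1 controls. On the minus strand it was 15.43 and 15.63 in KO1 and 15.24 and 14.1 in KO2, against 15.42 and 17.08 in the Mettl3 controls. There it was 18.56 and 17.87 in cKO, against 16.86 and 14.88 in the Ythdc1 controls. The part of depth in these counts was not tested. A peak count does not separate the amount of m6A, the amount of RNA and depth. In bulk samples such as these, fewer cells that make these transcripts and less RNA per cell cannot be told apart either.

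The order was the same relative to the size of the lists. Per 100000 peaks of its list, KO1 had 12.2 and 14.6 member peaks and KO2 had 13.5 and 14.0, against 26.5 and 30.0 in the Mettl3 controls. The cKO libraries had 19.8 and 17.5 per 100000, against 9.16 and 11.9 in the Ythdc1 controls. Counted by gene, KO1 had peaks on 4 and 3 of the 10 members and KO2 on 4 and 4, against 9 and 10 in the Mettl3 controls. The cKO had peaks on 5 and 5 members, against 4 and 4 in the Ythdc1 controls. Col5a1, Pdgfrb and Fbn1 had a peak in all 10 libraries and Loxl1 in 9 of them, while Tagln had a peak in 1 library, and Col1a2, Col5a2 and Acta2 in 2.

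**Figure D1:**
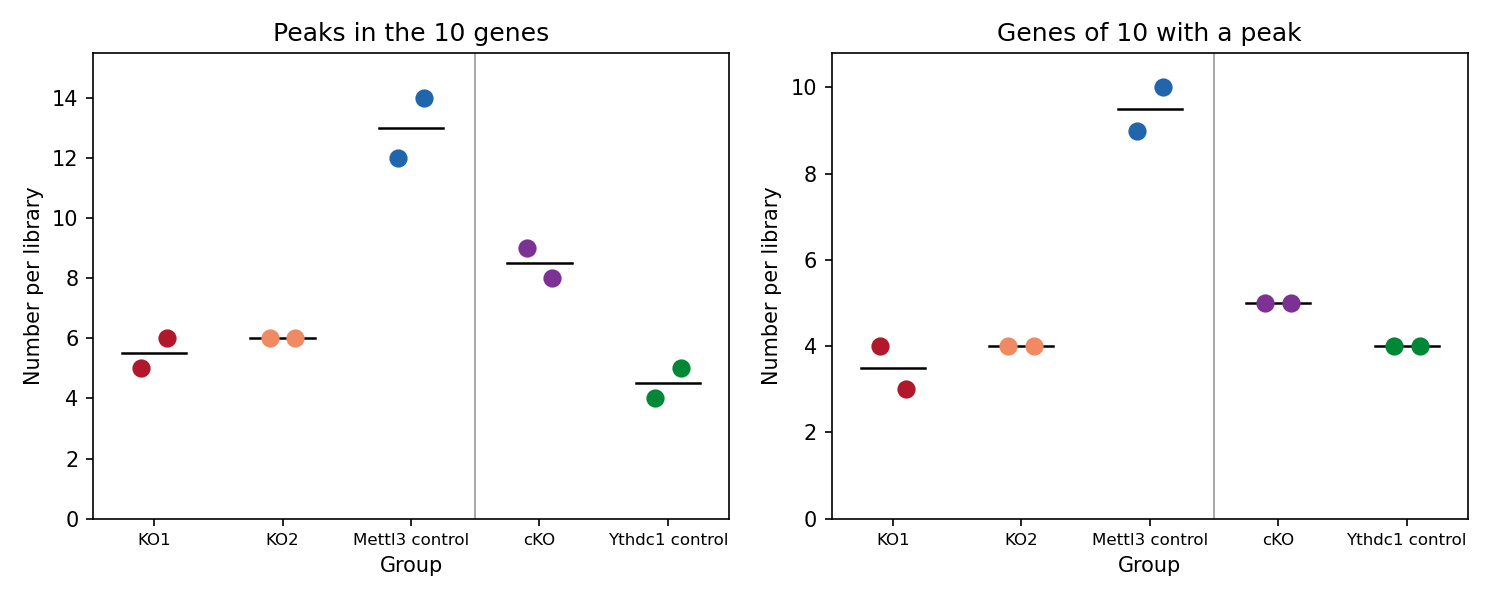
Left, peaks on the 10 matrix genes in each library; right, how many of the 10 genes had a peak (y axes, number per library; x axes, groups; points are libraries and bars group means). The Mettl3 control libraries hold 12 and 14 peaks and stand above all 8 other libraries, and the cKO libraries stand above the Ythdc1 controls.

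**Figure D2:**
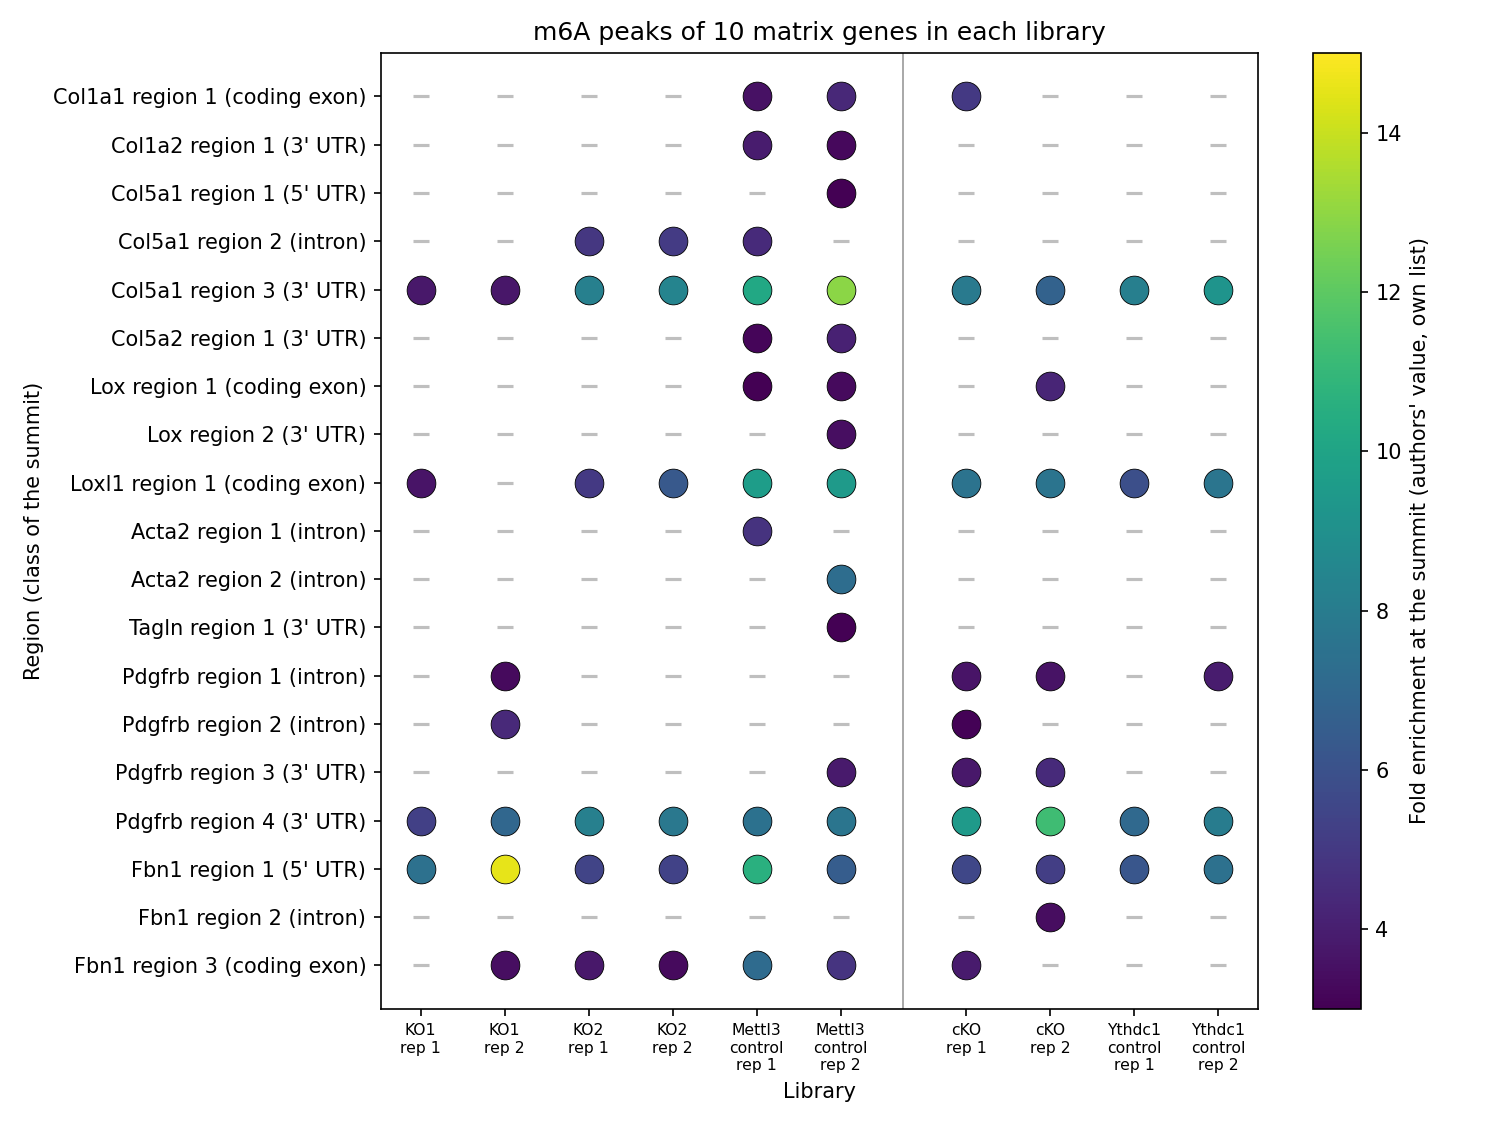
Each row is 1 of the 19 regions, numbered from 5' to 3' within a gene, and each column 1 library; a filled circle marks a peak, coloured by its fold enrichment in its own list, and a dash marks that no peak was called. The first regions of Col1a1, Col1a2, Col5a2 and Lox hold circles in both Mettl3 controls and none in KO1, KO2 or the Ythdc1 controls.

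Regions called in more than 1 library had their summits within 94 bp of each other, except those of Loxl1 and the Fbn1 5' UTR. Of the 19 regions, 7 had their summit in a 3' UTR, 4 in a coding exon, 2 in a 5' UTR and 6 in an intron. The stretches shown next are those around the Col1a1 summit, whose peak was missing in all KO libraries, and around or just before 3 recurring summits on other chromosomes. They were read from the GENCODE M21 transcripts (mm10), with each GGAC, the most favoured form of the m6A motif, in capitals. The Col5a1 stretch lies in a 3' UTR and is limited to 20 nt. It ends just before the median summit, at nt 6005, and leaves out a second GGAC, whose A lay 36 nt after that summit.
Col1a1, nt 4408 to 4508 of its transcript: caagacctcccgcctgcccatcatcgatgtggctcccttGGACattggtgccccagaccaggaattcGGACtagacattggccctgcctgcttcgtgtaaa
Col5a1, nt 5983 to 6002: cccatcccGGACagtgaaca
Loxl1, nt 936 to 1036: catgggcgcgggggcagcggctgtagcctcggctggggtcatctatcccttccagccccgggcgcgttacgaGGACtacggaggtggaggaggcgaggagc
Fbn1, nt 10856 to 10956: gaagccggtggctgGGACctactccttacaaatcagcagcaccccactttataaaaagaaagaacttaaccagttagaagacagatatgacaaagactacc
In Col1a1 the A of GGAC lay 9 nt before and 19 nt after the median summit, and the stretch ends just past the stop codon. The A lay 12 nt before the summit in Col5a1, 24 nt after it in Loxl1 and 34 nt before it in Fbn1. Within 50 nt of the summit, on the sense strand of the transcript, 8 of the 13 exonic member regions held GGAC and 12 held DRACH. Over all 25166 exonic regions the shares were 48.7% for GGAC and 91% for DRACH. Of the 4 regions missing in the Mettl3 knockouts, 2 held GGAC and 4 held DRACH. A match is a description of the letters near a summit.

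Type I collagen is the main fibre of connective tissue, built from the chains encoded by Col1a1 and Col1a2. Col1a1 (ENSMUSG00000001506.10) had 1 region, chr11:94951387-94951818 on the plus strand, in coding sequence of exon 51 of 51, with the median summit 46 nt before the last coding base. No peak was called there in the 4 KO1 and KO2 libraries, against 3.54-fold and 4.32-fold in the Mettl3 controls. In cKO replicate 1 it had 4.99-fold enrichment, with no peak in cKO replicate 2 or in either Ythdc1 control. The 3 summits lay within 7 bp of each other. The control peaks were modest ones, at percentiles 23.0 and 44.8 of fold enrichment in their lists.

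Col1a2 (ENSMUSG00000029661.16) had 1 region, chr6:4540549-4540807 on the plus strand, in its last exon, 52 of 52. Its summit lay 6 nt past the last coding base, at the start of the 3' UTR. No KO1 or KO2 library had a peak there, against 3.91-fold and 3.24-fold in the Mettl3 controls, and none was called in the cKO or Ythdc1 control libraries. Both chains of type I collagen thus had a stop codon peak that was listed in both Mettl3 controls and in 1 other library at most.

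Type V collagen, made from Col5a1 and Col5a2 chains, forms the core on which type I fibrils grow. Col5a2 (ENSMUSG00000026042.16) had 1 region, chr1:45375875-45376110 on the minus strand, in the 3' UTR 76 nt past the last coding base. No KO1 or KO2 library had a peak there, against 3.17-fold and 4.09-fold in the Mettl3 controls, with the summit at the same base, 45376011, in both. No cKO or Ythdc1 control library had a peak on Col5a2.

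Col5a1 (ENSMUSG00000026837.15) differed from Col5a2 in keeping its peak in every library. Its main region, chr2:28036957-28037347 on the plus strand, lay in the 3' UTR of exon 66 of 66, 100 nt past the last coding base, and all 10 summits fell within 25 bp. It had 3.76-fold and 3.72-fold enrichment in KO1 and 8.18-fold and 8.42-fold in KO2, against 10.2-fold and 12.9-fold in the Mettl3 controls. It had 7.89-fold and 6.71-fold enrichment in cKO, against 8.15-fold and 9.23-fold in the Ythdc1 controls. Within their own lists the KO1 peaks stood at percentiles 34.2 and 33.8 of fold enrichment and the KO2 peaks at 85.4 and 85.9, against 91.1 and 97.3 in the Mettl3 controls. The 2 knockout lines thus stood apart at this site, with KO1 far lower in its lists.

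The pile-up at the Col5a1 summit was solved from the deposited fold and p-value. It was 64 and 64 reads in KO1 and 139 and 133 reads in KO2, against 214 and 247 reads in the Mettl3 controls. It was 165 and 135 reads in cKO, against 152 and 153 reads in the Ythdc1 controls, so these groups overlapped in pile-up while both cKO folds lay below both control folds. Col5a1 also had a peak in intron sequence at chr2:27971210-27971450, with 4.91-fold and 5.09-fold enrichment in KO2 and none in KO1, against 4.43-fold in Mettl3 control replicate 1 alone. A peak in its 5' UTR, chr2:27886528-27886802, was listed in Mettl3 control replicate 2 alone, at 3.03-fold.

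**Figure D3:**
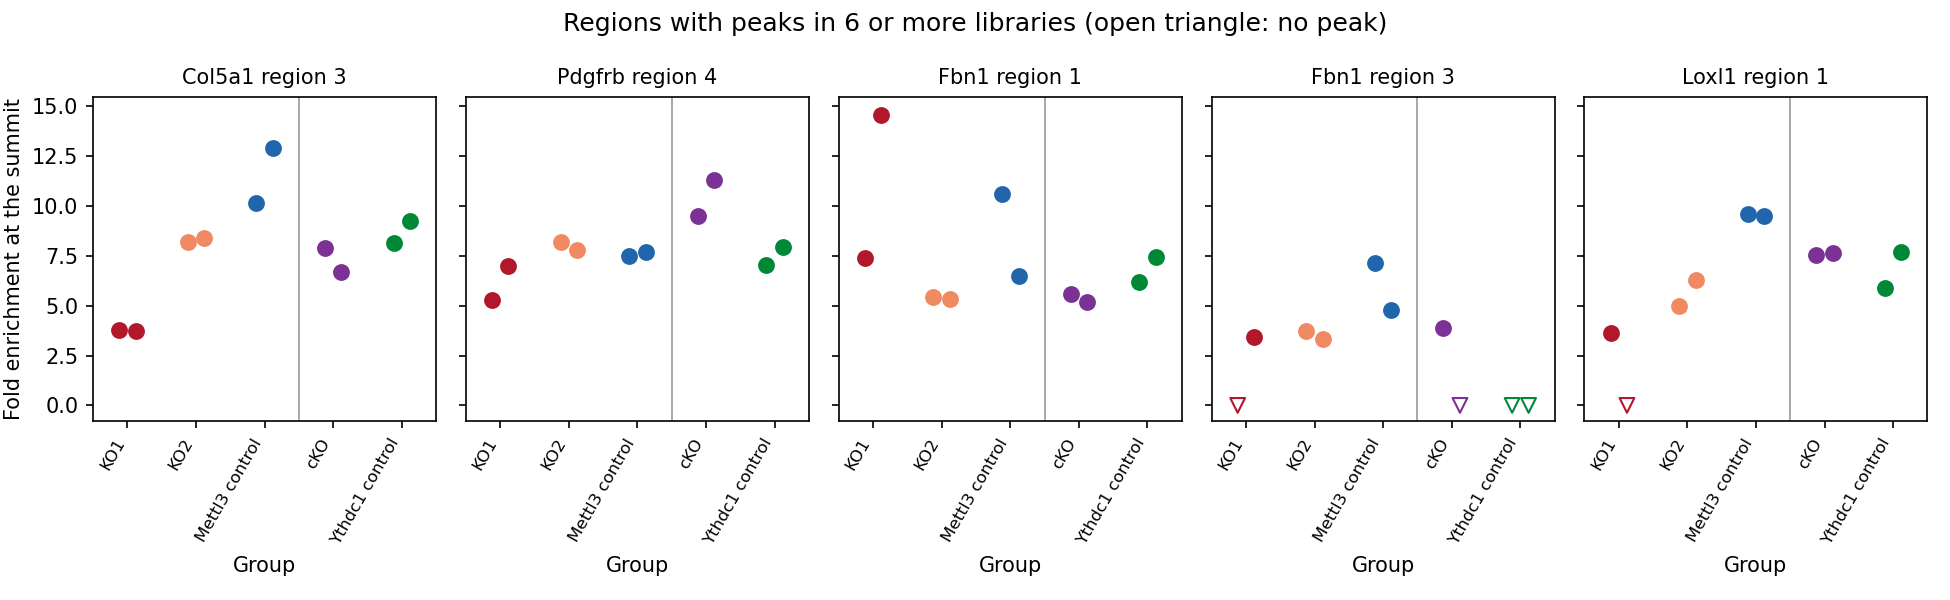
Fold enrichment (y axis, the authors' value in each library's own list) at the 5 member regions with a peak in 6 or more libraries, with 1 point per library, an open triangle at 0 where no peak was called, groups along the x axis and regions numbered from 5' to 3'. At the Col5a1 3' UTR (region 3) the KO1 points lie at 3.76 and 3.72 and the Mettl3 control points at 10.2 and 12.9, while the Pdgfrb 3' UTR points (region 4) of KO1, KO2 and the Mettl3 controls lie between 5.26 and 8.18.

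Lysyl oxidases oxidise lysines of collagen and elastin so that the fibres cross-link. Loxl1 (ENSMUSG00000032334.10), needed for elastic fibres, had 1 wide region, chr9:58312013-58313161 on the minus strand, in the coding part of exon 1 of 7. Its highest peak had 3.65-fold enrichment in KO1 replicate 1, none in KO1 replicate 2, and 4.99-fold and 6.29-fold in KO2, against 9.62-fold and 9.51-fold in the Mettl3 controls. It had 7.57-fold and 7.63-fold enrichment in cKO, against 5.88-fold and 7.68-fold in the Ythdc1 controls. The Mettl3 knockout values were all below both Mettl3 controls, while the cKO values lay within the range of their controls.

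Loxl1 was called differently from library to library. Its 11 peaks had summits in 2 clusters, at 58312168 to 58312201 and at 58312814 to 58312822, which together span 654 bp. KO1 replicate 1 and Mettl3 control replicate 1 had a separate peak at each cluster, at 3.47-fold and 3.65-fold in the KO1 library and at 9.62-fold and 7.80-fold in the control library. The KO2 libraries had a peak at the first cluster alone. In the cKO libraries, the Ythdc1 controls and Mettl3 control replicate 2, 1 peak of 1013 to 1138 bp covered both clusters.

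Lox (ENSMUSG00000024529.14), the founding member of the family, was called less often. Its region in coding exon 1 of 7, chr18:52528777-52529015 on the minus strand, had no peak in KO1 or KO2, against 3.04-fold and 3.32-fold in the Mettl3 controls. It had a peak in cKO replicate 2, at 4.24-fold, and none in cKO replicate 1 or the Ythdc1 controls. The 3 summits lay within 3 bp. A region in its 3' UTR, chr18:52519110-52519297, had a peak in Mettl3 control replicate 2 alone, at 3.43-fold.

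Fibrillin-1, the product of Fbn1 (ENSMUSG00000027204.13), is the backbone of microfibrils. In a region with its median summit in the 5' UTR, chr2:125505470-125505850 on the minus strand, Fbn1 had a peak in every library. The summit of Ythdc1 control replicate 1, at 125505600, fell in coding sequence. KO1 had 7.41-fold and 14.6-fold enrichment and KO2 had 5.42-fold and 5.36-fold, against 10.6-fold and 6.51-fold in the Mettl3 controls. The cKO had 5.57-fold and 5.19-fold, against 6.22-fold and 7.43-fold in the Ythdc1 controls. The replicates of KO1 and of the Mettl3 controls spread widely here and overlapped. The KO2 summits, at 125505739 and 125505713, lay upstream of those of the other 8 libraries, at 125505600 to 125505609. This stretch held neither GGAC nor DRACH within 50 nt of its median summit.

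The last coding exon of Fbn1, 65 of 65, had a region at chr2:125301519-125301848, with the median summit 103 nt before the last coding base. KO1 had no peak in replicate 1 and 3.43-fold in replicate 2, and KO2 had 3.76-fold and 3.31-fold, against 7.13-fold and 4.81-fold in the Mettl3 controls. The cKO had 3.88-fold in replicate 1 and none in replicate 2, with no peak in either Ythdc1 control. All knockout values lay below both Mettl3 controls. In intron sequence of Fbn1, chr2:125411120-125411305, only cKO replicate 2 had a peak, at 3.39-fold.

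The contractile genes had few peaks. Acta2 (ENSMUSG00000035783.9), smooth muscle alpha-actin, had no peak in KO1 or KO2, and in the Mettl3 controls it had 1 intron peak in each library, at different places. The peak of replicate 1 was at chr19:34251810-34251970 (4.74-fold) and that of replicate 2 at chr19:34248500-34248674 (7.25-fold), both on the minus strand. Neither region recurred. Tagln (ENSMUSG00000032085.5), the actin-binding protein transgelin, had 1 peak in all 10 lists, in the 3' UTR at chr9:45930223-45930534 on the minus strand, in Mettl3 control replicate 2 at 3.01-fold. On the opposite strand of the Tagln body every library had 1 or 2 peaks, 14 in all, some of them within the annotated gene Gm48529, and these were not counted for Tagln. In Mettl3 control replicate 2, 1 of them, at chr9:45930010-45930247 (5.90-fold), overlapped the Tagln peak and covered its summit at 45930244. No other member had a peak on its opposite strand.

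Pdgfrb (ENSMUSG00000024620.11) encodes the beta receptor for platelet-derived growth factor, a mesenchymal mitogen. Its strongest region lay in the 3' UTR, chr18:61084398-61084955 on the plus strand, 1228 nt past the last coding base, and every library had a peak there. KO1 had 5.26-fold and 6.97-fold enrichment and KO2 had 8.18-fold and 7.79-fold, against 7.48-fold and 7.67-fold in the Mettl3 controls. The cKO had 9.51-fold and 11.3-fold, against 7.03-fold and 7.97-fold in the Ythdc1 controls. The cKO values lay above both of their controls, and the KO2 values lay above both Mettl3 controls while the KO1 values lay below them. The pile-up at this summit was 199 and 228 reads in cKO, against 131 and 132 reads in the Ythdc1 controls.

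Pdgfrb was also the member with most peaks, 19 in all, and 3 of its 4 regions varied between libraries. Its second 3' UTR region, chr18:61083289-61083787, had 3.76-fold and 4.44-fold enrichment in cKO and no peak in the Ythdc1 controls. It had no peak in KO1 or KO2, against 3.81-fold in Mettl3 control replicate 2 alone. An intron region, chr18:61050557-61050858, had 3.61-fold and 3.60-fold enrichment in cKO, against 3.90-fold in Ythdc1 control replicate 2, and 3.32-fold in KO1 replicate 2 with none in the Mettl3 controls. A further intron region, chr18:61066948-61067298, had a peak in cKO replicate 1, at 3.09-fold, and in KO1 replicate 2, at 4.40-fold. The intron peaks of Pdgfrb thus came from KO1 replicate 2, the cKO libraries and Ythdc1 control replicate 2, and none came from KO2 or the Mettl3 controls.

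In the Mettl3 comparison, a region was lost when both controls and no KO1 or KO2 library had a peak, kept when every library had one, and gained when all KO libraries and neither control had one. Of 9 member regions that both Mettl3 controls held, 4 were lost, those of Col1a1, Col1a2, Col5a2 and Lox. Over all such regions 13.1% were lost, and since the members were selected on this loss nothing is read from the difference. Another 3 regions were kept, in Col5a1, Pdgfrb and Fbn1, against 57.7% of all regions, and the other two, in Loxl1 and the last exon of Fbn1, had a peak in 3 of the 4 KO libraries. Of 16 member regions with a peak in either control, 10 had none in any KO library, against 21.1% over all regions. Of 3 member regions with a peak in every KO library 0 were gained, against 4.38% over all such regions. By gene, 4 of the 8 members that had such a region lost every one, against 4.85% of all genes.

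The same 4 regions were absent from KO1 and from KO2 taken alone, 2 comparisons that share the same control libraries. In KO1 4 of 9 member regions were lost, against 24.3% of all regions, and 3 were kept, against 64.6%. In KO2 4 of 9 were lost, against 18.4%, and 5 were kept, against 70.3%. Both of the regions that KO2 alone kept, Loxl1 and the last exon of Fbn1, were missing from 1 of the KO1 libraries. The count of lost regions rested on both controls being required. Without Mettl3 control replicate 1 it was 9, and without Mettl3 control replicate 2 it was 5.

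The pile-up at the 4 lost regions was low in Col1a2 and Col5a2 and higher in Col1a1 and Lox. At Col1a2 it was 67 and 61 reads and at Col5a2 51 and 73 reads in the Mettl3 controls, near the lowest of any member peak, which was 49 reads. At Col1a1 the Mettl3 controls had 139 and 156 reads over a local background of 38.6 and 35.3 reads, which was 2.36 and 1.95 times the most common background of their lists. At Lox they had 122 and 143 reads over 39.4 and 42.3 reads, or 2.56 and 2.48 times. In the cKO libraries with a peak there, the background was the common one of the list, with 104 reads at Col1a1 over 20.03 and 79 reads at Lox over 17.9. The local background at both genes was thus raised in the Mettl3 controls, while the cKO peaks were called over the common background. A list gives no background where no peak was called, so none can be given for the other libraries.

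**Figure D4:**
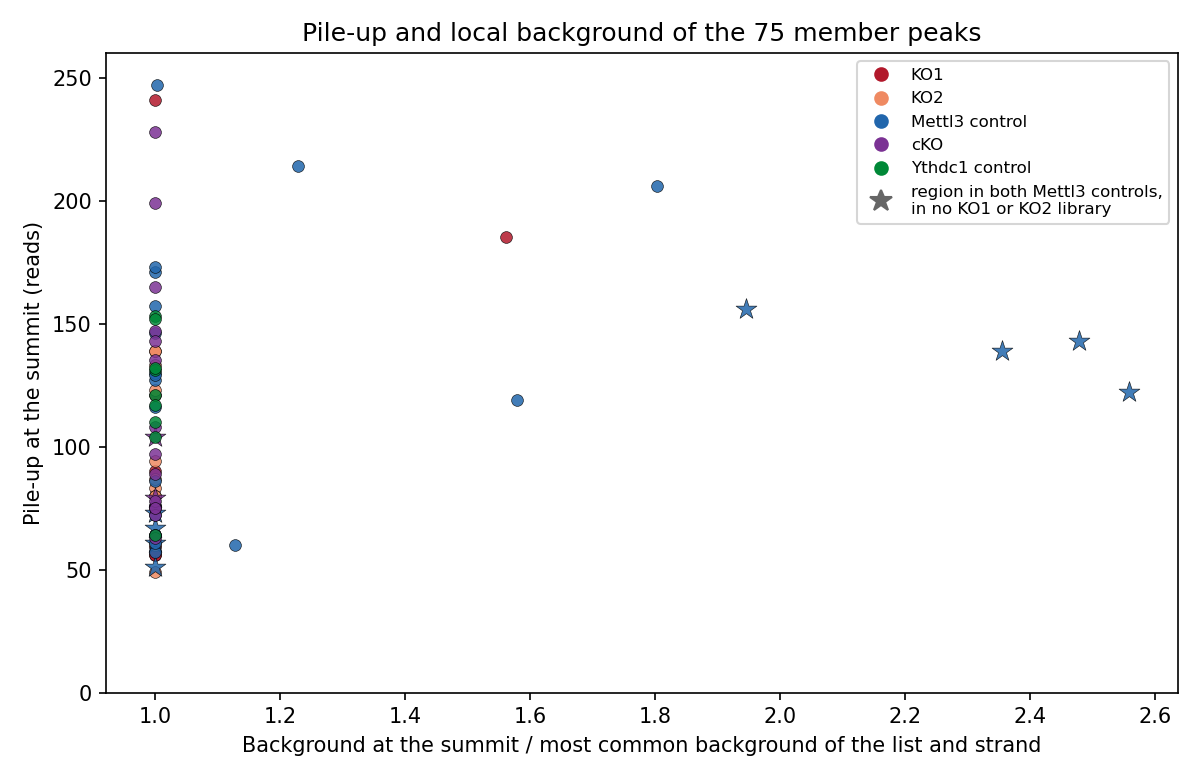
Pile-up at the summit (y axis, reads) of each of the 75 member peaks against its local background as a multiple of the most common background of its list and strand (x axis); colours are groups, and stars mark the regions present in both Mettl3 controls and in no KO1 or KO2 library. The 66 peaks at the common level sit at 1, and the 9 peaks at 1.1 times or more include the Mettl3 control peaks of Col1a1 and of the first Lox region, which are the 4 stars to the right.

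Over the 10 genes, 66 of 75 peaks had a background within 1% of the most common one, and 9 were at 1.1 times or more. Of these 9, 8 came from the Mettl3 controls and 1 from KO1 replicate 1. Besides Col1a1 and Lox they were the Fbn1 5' UTR peaks of KO1 replicate 1 (1.56 times) and of Mettl3 control replicate 2 (1.80 times), and Mettl3 control peaks of Acta2 (1.58 times), Col5a1 (1.23 times) and Tagln (1.13 times). Among 600 peaks solved per list and strand, 37.17% to 57.67% were at 1.1 times or more.

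In the Ythdc1 comparison no member region was lost. All 4 member regions with a peak in both Ythdc1 controls were kept, those of Col5a1, Loxl1, Pdgfrb and Fbn1, against 72.2% kept and 17.9% lost over all such regions. Of 5 with a peak in either control, 0 lacked a cKO peak, against 30.5% over all regions, and 0 of 4 genes lost all regions, against 8.59%. Of 6 member regions with a peak in both cKO libraries 1 was gained, the second 3' UTR region of Pdgfrb, against 28.0% over all such regions. That count was 3 without cKO replicate 1, 4 without cKO replicate 2 and 2 without Ythdc1 control replicate 2.

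The number of peaks per gene was tested over the Ythdc1 libraries, where the smallest two-sided p that 2 libraries against 2 allow is 0.333. Pdgfrb had 4 and 3 peaks in cKO, against 1 and 2 in the Ythdc1 controls, a difference of 2 peaks (exact permutation test, two-sided, p = 0.333). Fbn1 had 2 and 2 peaks in cKO, against 1 and 1 in the Ythdc1 controls, a difference of 1 peak (exact permutation test, p = 0.333). The second Fbn1 peak lay in the last coding exon in cKO replicate 1 and in an intron in cKO replicate 2, so neither place recurred in cKO. The counts of both genes were higher in 2 of 2 cKO libraries, and neither could pass a threshold in this design. Both genes were also picked with their peaks known, so these p-values are no independent test and nothing is read from them. Col1a1 and Lox each had a peak in 1 cKO library and none in the controls (exact permutation p = 1), and the other 6 members had the same count in all 4 libraries.

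The Mettl3 and the Ythdc1 controls differed on these genes. This was known when the members were chosen, so nothing is read from the shares below. All 4 regions lost in the Mettl3 knockouts had no peak in either Ythdc1 control, while 49.6% of the 5001 regions lost over all genes had none. None of the 3 kept member regions lacked a peak in both Ythdc1 controls, against 14.2% of the 21961 kept regions over all genes. Of the 4 lost member regions, 2 had a peak in at least 1 cKO library, against 56.8% of all lost regions. The absence of Col1a1, Col1a2, Col5a2 and Lox peaks was thus shared by KO1, KO2 and the Ythdc1 controls. Col1a2 and Col5a2 also had no peak in either cKO library, and Col1a1 and Lox each lacked one in 1 of the 2.

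The pattern of Col1a1, a peak in both Mettl3 controls and cKO replicate 1 and in no other library, was found in 17 other genes of 14601, or 0.116%. The highest by mean fold enrichment were 0610040J01Rik (7.13), Gm5542 (5.90), Cd84 (5.54), Gm2163 (5.48) and Gm21032 (5.40). The pattern of Col1a2 and Col5a2, a peak in both Mettl3 controls only, was found in 100 genes including these, or 0.685%. A peak in both Mettl3 controls with none in any KO or Ythdc1 control library was found in 162 genes, or 1.11%.

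Markers of other cell types were read in the same way. Of 15 fibroblast marker genes 7 are members, and the other 8 had no peak in any KO1, KO2 or Mettl3 control library. Pdgfra, the alpha receptor for platelet-derived growth factor, was the only one of these 8 with a peak, in both cKO libraries and in Ythdc1 control replicate 2. Col3a1, Col6a1, Col6a2, Thy1, Postn, Dcn and Lum had no peak in any library. Of the 4 smooth muscle markers that are not members, Des had a peak in both KO2 libraries and in Ythdc1 control replicate 1, and Cnn1, Myh11 and Actg2 had none. Macrophage markers had peaks on 0 or 1 of 4 genes per library, with none on Adgre1, Csf1r or Ptprc. Markers of primitive and parietal endoderm had peaks on 4 or 5 of 10 genes in every library. Gata6, Sox17 and Foxa2 had no peak in any library, and Dab2 had one in KO2 replicate 1 alone. Of the 22 regions of this list in both Ythdc1 controls 15 were lost in cKO, against 17.9% over all regions, and 5 were kept. The lost regions were in Col4a1 (6), Lama1 (4), Lamb1 (3) and Sparc (2). In cKO 5 genes, Gata4, Col4a1, Col4a2, Lama1 and Sparc, gained a region. Gains were common, at 28.0% of all regions with a peak in both cKO libraries, so nothing particular to these genes is read from them. In the Mettl3 comparison 1 of the 16 control regions of this list was lost, against 13.1%. The peaks of this list changed in cKO beside the member peaks, and their part in that result was not tested.

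Other collagen genes mostly had no peak to lose. Of 39, 25 had none in any library. In the Mettl3 comparison 9 had a control region and 2 of them lost every one, against 4.85% of all genes. These were Col4a2, a basement membrane chain, and Col12a1, a fibril-associated collagen. Col4a2 had no peak in KO1 or KO2, against 4.20-fold and 3.86-fold in the Mettl3 controls, and it had 6.18-fold and 6.02-fold in cKO, against none in the Ythdc1 controls. Col12a1 had no peak in KO1 or KO2, against 3.41-fold and 3.71-fold in the Mettl3 controls, and none in the Ythdc1 libraries. The folds of genes with several regions are given here as the highest on the gene in each library, wherever it lay. Col4a1, the partner chain of Col4a2, kept 1 of 3 regions, with 8.52-fold to 14.2-fold in the KO libraries, against 12.97-fold and 13.05-fold in the controls. Col18a1, the endostatin precursor, also kept a region, with 5.48-fold to 7.83-fold in the KO libraries, against 14.8-fold and 9.68-fold.

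Among genes that process or cross-link collagen, 1 of 16 that had a Mettl3 control region lost every one, a share near the 4.85% of all genes. This was Loxl2, a further lysyl oxidase, with no peak in KO1 or KO2, against 5.47-fold and 7.52-fold in the Mettl3 controls, and none in the Ythdc1 libraries. Mia3, which helps collagen leave the endoplasmic reticulum, kept a region, with 7.96-fold to 12.6-fold in the KO libraries, against 18.1-fold and 16.97-fold. No gene lost all regions among 5 microfibril and elastic fibre genes, 13 matrix glycoprotein genes, 9 contractile genes or 4 fibroblast surface and lineage genes that had a control region. Emilin1, an elastic fibre glycoprotein, had 7.55-fold to 11.6-fold in the KO libraries, against 11.5-fold and 12.2-fold. Lama1, a laminin chain, had 14.7-fold to 20.6-fold, against 20.4-fold and 18.7-fold. Srf, the transcription factor of contractile genes, had 4.81-fold to 8.0-fold, against 11.7-fold and 8.78-fold. Mmp14, a membrane collagenase, had 10.7-fold to 16.8-fold, against 11.3-fold and 12.6-fold.

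Of 13 growth factor signalling genes of fibroblasts that had a control region, 1 lost every one in the Mettl3 knockouts, against 4.85% of all genes. From the whole list Tgfbr3, Smad2 and Tead1 gained a region, while 4.38% of all regions with a peak in every KO library were gained. The share of all genes with a gain was not counted. The lost gene was Inhba, an activin subunit, with no peak in KO1 or KO2, against 10.4-fold and 11.2-fold in the Mettl3 controls. It had 3.61-fold and 2.86-fold in cKO, against none and 3.36-fold in the Ythdc1 controls. Of 9 embryonic stem cell markers with a control region, 1 lost all, Utf1, with 7.65-fold and 8.82-fold in the Mettl3 controls.

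Over all genes 8.59% lost every control region in the Ythdc1 comparison, so with 4 members the absence of such a loss is not a result. Of 5 other collagen genes with a region in both Ythdc1 controls, 2 lost all, Col4a1 and Col9a2. Col9a2, a cartilage collagen chain, had no peak in cKO, against 6.34-fold and 6.41-fold in the Ythdc1 controls. Col4a1 lost 6 of 6 control regions but had other peaks in cKO, at 4.80-fold and 5.46-fold. Pcolce2, an enhancer of procollagen processing, had no peak in cKO, against 5.01-fold and 7.92-fold in the Ythdc1 controls, and was 1 of 12 processing genes to lose all. Lamb1, a laminin chain, had no peak in cKO, against 8.37-fold and 10.5-fold, and was 1 of 13 matrix glycoprotein genes. None did so among 4 microfibril, 12 contractile, 13 growth factor signalling and 3 surface and lineage genes.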

How the data were processed

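m6A immunoprecipitations of chromatin-associated, ribosome-depleted RNA were sequenced from stranded libraries, per the labels' protocols. CASAVA, Trimmomatic 0.38, HISAT2 2.1.0, MACS2 and mm10 were used, per the submitters' processing notes. MACS2's version, its command line and whether inputs served as control are not given in the sources used here.

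Each library has 1 strand-specific narrowPeak list. For each peak the authors deposited a fold enrichment (a ratio), the −log10 of its p-value and q-value, and a display score that was not used. By their values, the authors' lists hold peaks of at least 150 bp with −log10 q of at least 2.0. They hold no read counts, so the sequencing depth is unknown.

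Peaks on the autosomes (1 to 19), the sex chromosomes and the mitochondrial genome were assigned by summit and merged per strand at 1 bp of overlap. Summits were placed in a 3' UTR, coding exon, 5' UTR or intron of GENCODE M21. Pile-up and local background were solved from fold and p under a Poisson model, and for 75 of 75 member peaks a whole-read pile-up gave the deposited −log10 p to within 0.002. The scripts (Python 3.11.15, SciPy 1.17.1) were tested on simulated data. Tests were exact permutations over libraries.

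The members and lists were chosen with earlier results of these data known. All members and their peaks are named. Of each other list, genes that lost every control region (up to 4) and the 2 kept genes with the highest control fold could be named, and not all of them are.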

Additional observations from a re-analysis of the deposited data

How the results depend on the processing

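Peaks were also assigned by any overlap with the gene body, limited to −log10 q of at least 5 or to at least 3-fold enrichment, and joined at an overlap of 0.5 of the shorter peak. Lost was also read as no peak in at least 3 of the 4 Mettl3 KO libraries. Under these settings all counts of lost, kept and gained member regions stayed within 1.5 times the reported ones. The limits on q and fold could not remove a member peak, since the lowest member values were −log10 q of 10.02 and 3.01-fold. The stable counts under those limits were therefore fixed in advance. Taken alone, KO2 kept 5 member regions, against 3 with KO1 and KO2 together. Leaving out each library in turn, the Mettl3 lost count ranged from 4 to 9 and the kept count from 3 to 4, and none was gained. The Ythdc1 lost count stayed 0, the kept count ranged from 4 to 5 and the gained count from 1 to 4. With replicate numbers as a replicate block, the Pdgfrb difference in peaks between cKO and Ythdc1 control was again 2 and that of Fbn1 again 1, each with an exact sign-flip p of 0.5, the smallest that 2 pairs allow. That the numbers pair libraries is not stated. None of the 80 alternative values for peaks per gene reversed the sign of its difference, and none could pass a threshold. A difference of 0 could not reverse, and a fall to 0 was not counted as a reversal. The Col1a1 difference fell to 0 without cKO replicate 1, and that of Lox fell to 0 without cKO replicate 2. Depth is known only through the most common background. Against both Mettl3 controls, that background was higher in the cKO libraries, and lower in KO2 and in Ythdc1 control replicate 2. In KO1 and Ythdc1 control replicate 1 it lay between them, except in KO1 replicate 1 on the plus strand (16.28 against 16.38 reads). Col1a2 and Col5a2 had no peak in any of these libraries, and the part of depth was not tested.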
